A study of Mus musculus with 3 samples.

Results

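The subunits and ATPases of chromatin remodelling complexes, together with the related ARID family of DNA-binding proteins, were described in RNA held on the chromatin of mouse macrophages. The genes were chosen by symbol alone: those starting with Smarca to Smarce, Arid1 to Arid5, Chd1 to Chd9 or Ino80, with at least 1 annotated protein-coding transcript. This gave 38 genes of 55450 annotated genes, of which 21951 were protein-coding. The rule uses no measured value.

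The cells were macrophages grown from the bone marrow of C57BL/6J mice, with no genetic change given in the labels. They had lipid A at 100 ng/ml for 12 h, were left without it for 12 h after a wash, and met lipid A at 100 ng/ml again for 90 min. The receptor TLR4 recognises lipid A, the membrane anchor of bacterial lipopolysaccharide. Total RNA of the chromatin fraction was depleted of ribosomal RNA and sequenced in 3 libraries of this 1 condition, so all comparisons below are between genes and between transcripts within a library. Starting RNA was 1 µg in replicate 1, 250 ng in replicate 2 and 500 ng in replicate 3, and the labels give the same donor entry for all 3. The labels do not say if cultures were separate, so p-values and SDs measure only the spread between these libraries, which may be technical. Age and sex are not given in the labels.

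SWI/SNF-type remodellers use the energy of ATP to slide, evict or exchange nucleosomes, and each complex is built around 1 ATPase with a set of accessory subunits that direct it. The ATPases fall into the SWI/SNF, ISWI, CHD and INO80 families. Many subunits come as pairs of close relatives of which a complex takes one at a time. In macrophages, SWI/SNF and the CHD4-containing NuRD complex are known to act at promoters and enhancers of genes induced through TLR4.

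The libraries held 12671700 (replicate 1), 21747001 (replicate 2) and 16915406 (replicate 3) expected counts, and the 38 genes took 47084, 78226 and 60885 of them. This was 0.377%, 0.361% and 0.362% of the counts in annotated genes. All 8 macrophage markers, among them Adgre1, Csf1r and Spi1, reached at least 1 TPM in every library, with a median of 68.0 ± 7.22 TPM. TPM is a relative abundance corrected for transcript length, and errors are SDs over the 3 libraries unless stated. Values are from the deposited gene and first transcript tables, and a second deposited transcript table of the same libraries is quoted where it differs. Of 15 markers of T cells, B cells, neutrophils, fibroblasts and endothelium, only Kdr reached 1 TPM in every library, at 13.44, 3.19 and 4.54 TPM. In the second transcript table Kdr averaged 8.17, Pecam1 7.78, Col1a1 1.36, Mpo 1.21 and Ms4a1 1.01 TPM, and the other markers below 1 TPM. The part of other cells in the values below was not tested further.

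RNA of most remodeller genes was present on chromatin, at a median level above that of protein-coding genes. At least 1 TPM in every library was reached by 34 of the 38 genes, against 41.2% of all protein-coding genes. The other 4 were Chd1l, at 0.89 TPM in replicate 1 and above 1 TPM in replicates 2 and 3, Chd5, Smarca1 and Arid3c. At least 10 TPM in every library was reached by 26 of the 38, against 19.2%. The median over the 38 genes was 20.2 ± 1.12 TPM, and that over the 12401 protein-coding genes averaging 0.1 TPM or more was 5.68 ± 0.33 TPM. The genes ranged from Chd4 and Chd2, at 165.7 ± 27.2 and 161.9 ± 46.2 TPM, to Arid3c, which had no count in any library. In bulk RNA, fewer cells with a transcript and less of it per cell cannot be told apart. The order of the 38 genes was similar in the 3 libraries, with Spearman correlations across genes of 0.961 to 0.975. Genes are not independent replicates, and the libraries share their annotation and gene lengths, so these correlations only describe the libraries.

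**Figure D1:**
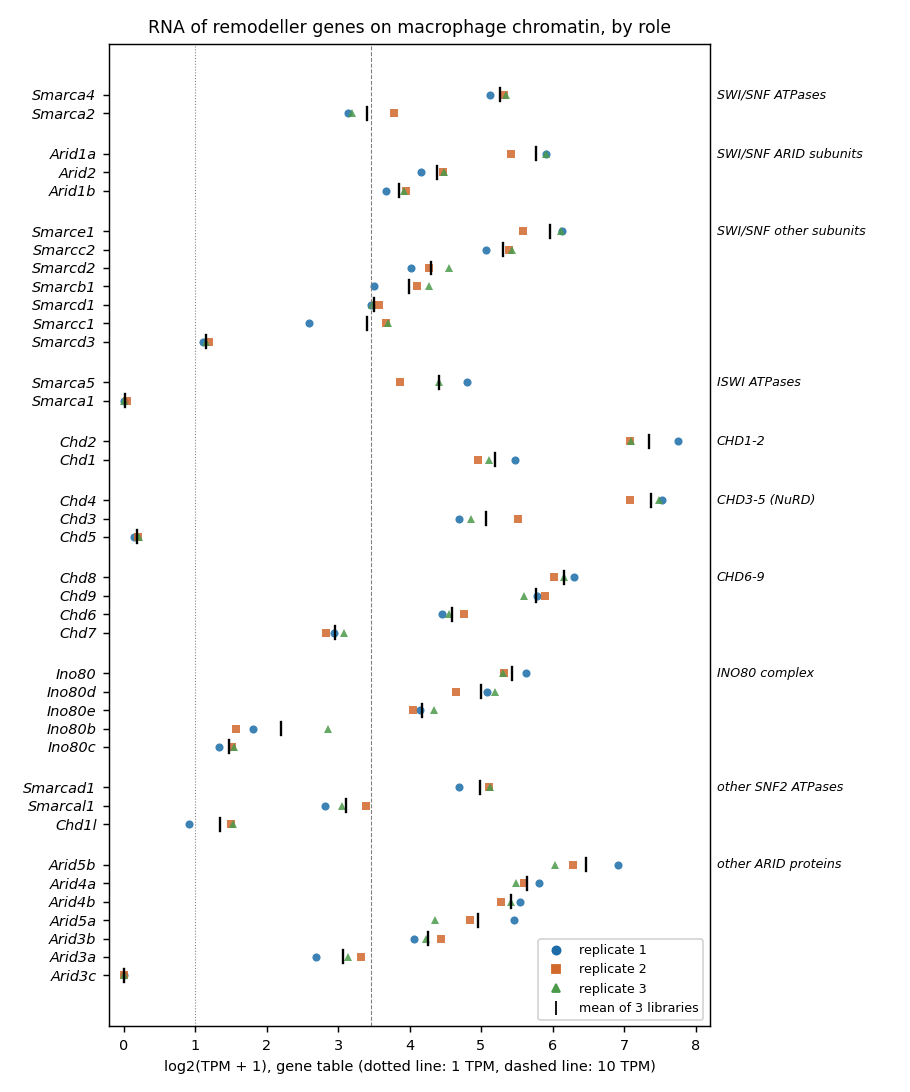
RNA levels of the 38 genes, as log2(TPM + 1) on the horizontal axis, grouped by role; points are the 3 libraries and the bar is their mean. Chd4, Chd2 and Arid5b stand at the right end, and Chd5, Smarca1 and Arid3c lie at or near 0.

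The catalytic subunit of SWI/SNF is either SMARCA4, also called BRG1, or SMARCA2, also called BRM. Smarca4 had 33.78, 39.12 and 39.85 TPM in replicates 1, 2 and 3, and Smarca2 had 7.79, 12.75 and 8.14 TPM. The ranges did not overlap, and Smarca4 was the higher in 3 of 3 libraries. Its excess over Smarca2 was 1.90 ± 0.32 on the log2(TPM + 1) scale, which understates differences of low genes. An exact two-sided sign-flip test over the 3 libraries gave p = 0.25, the smallest it can give with 3 libraries, so no pair of genes could be called. The size depended on the transcripts counted. In the second deposited transcript table, made from the reads without the alignments, Smarca2 averaged 25.04 TPM and the difference was 0.42 ± 0.14. Counting only complete coding transcripts, those annotated with both ends of the coding sequence, it was 2.85 ± 0.03, with Smarca4 at 31.5 ± 3.39 TPM and Smarca2 at 3.51 ± 0.38 TPM. Of the Smarca2 RNA, 40.5% was on transcripts annotated as targets of nonsense-mediated decay, a class with a premature stop codon. Smarca4 has no transcript of this class in the annotation, so its share could only be 0%. The share of Smarca2 was 16.8% in the second transcript table.

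SWI/SNF comes in forms marked by an ARID subunit, ARID1A or ARID1B in the BAF form and ARID2 in the PBAF form. Arid1a had 59.18, 41.72 and 59.06 TPM and Arid1b had 11.72, 14.41 and 14.13 TPM. Arid1a was the higher in every library, by 1.90 ± 0.39 on the log2 scale (exact sign-flip p = 0.25). Arid2 lay between them at 16.91, 21.04 and 21.46 TPM, overlapping neither. The leading transcript of Arid1a was a fragment of 521 bases, Arid1a-206, annotated as retained intron, a kind of transcript that holds intron sequence, at 27.52, 9.55 and 22.45 TPM. Its lowest value was in replicate 2, which was also where Arid1a as a whole was lowest. On complete coding transcripts, Arid1a averaged 16.1 ± 4.28 TPM, Arid2 14.7 ± 2.21 TPM and Arid1b 6.78 ± 0.67 TPM. Arid1a and Arid2 then no longer differed beyond their spread. The difference of Arid1a over Arid1b was then 1.11 ± 0.29. Of this Arid2 level, 7.31 ± 1.53 TPM was on Arid2-202, of only 809 bases, and 7.41 ± 0.68 TPM on Arid2-201, of 8507 bases. In the second transcript table Arid2 was the higher on complete coding transcripts, at 18.1 TPM against 14.0 TPM for Arid1a.

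Among the other SWI/SNF subunits, all 7 reached 1 TPM in every library and 5 reached 10 TPM. The scaffold subunits SMARCC1 and SMARCC2 pair in the core of the complex. Smarcc1 had 5.06, 11.69 and 11.97 TPM, with replicate 1 the low one, and Smarcc2 had 32.75, 41.1 and 42.35 TPM. Smarcc1 was the lower in 3 of 3 libraries, with a difference of -1.98 ± 0.43 on the log2 scale (exact sign-flip p = 0.25). The SMARCD proteins link the complex to transcription factors. Smarcd1 had 10.03, 10.87 and 10.16 TPM, against 15.2, 18.37 and 22.49 TPM for Smarcd2, a relative needed for granulocyte development, and their ranges did not overlap. The difference was -0.78 ± 0.27 (exact sign-flip p = 0.25). Smarcb1, the core subunit also called SNF5, averaged 14.99 ± 4.13 TPM and was lowest in replicate 1.

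Smarce1, which encodes the HMG-box subunit BAF57, had the highest gene level of this group, at 69.5, 47.09 and 68.27 TPM. Only 13.3% of its RNA was on complete coding transcripts, at 7.99 ± 0.26 TPM, below the 29.9 ± 2.93 TPM of Smarcc2. The other 86.7% was on transcripts annotated as processed transcripts without a reading frame, led by Smarce1-205, of 481 bases, at 20.9 ± 4.46 TPM. Smarcd3, the subunit known from heart and muscle, was listed at 1.17, 1.29 and 1.23 TPM, and at a mean of 2.86 TPM in the second transcript table. In the first table all of its TPM was on retained-intron transcripts and none on a complete coding one. Its leading transcript, Smarcd3-205, shares 2466 of its 3774 bases with exons of Chpf2, a gene on the opposite strand at 14.4 ± 4.48 TPM. The use of strand in the counting was not given in the sources used here. Reads of Smarcd3 and of Chpf2 therefore cannot be told apart with certainty.

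The ISWI family has the ATPases SMARCA5, also called SNF2H, and SMARCA1, also called SNF2L. Smarca5 had 26.92, 13.64 and 20.4 TPM, and averaged 41.6 TPM in the second transcript table against 20.3 TPM in the first. Smarca1, known mainly from neurons, had 0, 2 and 0 counts, where a count of 0 allows up to 3 counts, or 0.118 and 0.0867 TPM in replicates 1 and 3. The Smarca5 libraries lay far above these floors, and the difference was 4.35 ± 0.49 on the log2(TPM + 1) scale (exact sign-flip p = 0.25), or 2.80 ± 0.10 on complete coding transcripts. Smarca5 was the detected gene whose CPM, counts scaled to a common library size, differed least between libraries, at 40.9, 40.6 and 40.8 after TMM scaling, while its TPM was lowest in replicate 2. TPM also depends on which transcripts the counts were assigned to. The retained-intron fragment Smarca5-206, of 334 bases, had 7.03, 0.53 and 3.46 TPM, and the complete coding Smarca5-201, of 6113 bases, had 6.3, 5.66 and 6.23 TPM.

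The related remodellers CHD1 and CHD2 act at transcribed genes, and CHD1 binds methylated histone H3. Chd1 had 43.53, 30.19 and 33.59 TPM. Chd2, at chr7:73426638-73541830 on the minus strand of mm10, had 215.24, 135.15 and 135.41 TPM, and both were highest in replicate 1. Chd1 was the lower in 3 of 3 libraries, by a log2 difference of -2.13 ± 0.15 (exact sign-flip p = 0.25). On complete coding transcripts the difference was -0.78 ± 0.10, with Chd1 at 23.2 ± 4.85 TPM and Chd2 at 40.4 ± 6.86 TPM. Chd2 is known for a neighbouring noncoding RNA, Chaserr, which represses it in mouse and is annotated as 1810026B05Rik on the same strand. This RNA had 79.12, 48.15 and 54.37 TPM, highest in replicate 1 like Chd2, and averaged 128.2 TPM in the second transcript table. The annotated genes overlap by 2628 bases, and the retained-intron transcript Chd2-208 shares 70.2% of its bases with exons of 1810026B05Rik, so part of the reads of each could be assigned to the other. Chd2-203, the complete coding transcript, shares 6.98% and had 48.28, 35.92 and 36.94 TPM.

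CHD3, CHD4 and CHD5 are alternative ATPases of the NuRD complex, which joins remodelling with histone deacetylation. Chd4, at chr6:125095981-125130591 on the plus strand of mm10, had 183.36, 134.33 and 179.37 TPM, a mean above that of 98.6% of protein-coding genes. Its mean TPM was the highest of the 38 genes through replicate 3, while Chd2 was above it in replicates 1 and 2. Chd2 was also above it in the second transcript table, at 230.7 against 147.0 TPM, and in TMM-scaled CPM, at 480.7 against 398.6. Chd3 had 24.93, 44.82 and 28.16 TPM, with its highest value in the library where the TPM of Chd4 was lowest. In TMM-scaled CPM, Chd4 was instead lowest in replicate 1, at 355.9, 403.5 and 436.5. Chd3 was again highest in replicate 2, at a CPM of 60.0, 121.7 and 67.7. Chd4 was the higher by 2.34 ± 0.68 on the log2(TPM + 1) scale (exact sign-flip p = 0.25), and by 2.92 ± 0.38 on complete coding transcripts. Chd5, known from neurons and testis, had 11, 24 and 19 counts, or 0.14 ± 0.03 TPM. Chd3 also holds a small RNA of Cajal bodies, Gm22442, which was listed at 162.3 ± 72.6 TPM, and the leading Chd3 transcript was an incomplete coding fragment of 430 bases.

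The CHD6 to CHD9 class includes CHD7, mutated in CHARGE syndrome, and CHD8, a gene linked to autism. Chd8 had 77.68, 63.71 and 70.25 TPM and Chd7 had 6.7, 6.15 and 7.48 TPM. Chd8 was the higher by 3.20 ± 0.14 on the log2 scale (exact sign-flip p = 0.25), and by 2.26 ± 0.22 on complete coding transcripts. Chd9 had 53.3 ± 5.55 TPM and Chd6 had 23.2 ± 2.71 TPM. Chd8 averaged 111.6 TPM and Chd9 97.4 TPM in the second transcript table. The complete coding share was 26.1% in Chd8, 19.5% in Chd9, 33.5% in Chd6 and 43.6% in Chd7. On complete coding transcripts the order was the same, with Chd8 at 18.1 ± 3.68, Chd9 at 10.4 ± 1.99, Chd6 at 7.85 ± 1.88 and Chd7 at 2.97 ± 0.55 TPM, and the ranges of Chd9 and Chd6 overlapped.

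The INO80 complex exchanges and spaces nucleosomes and has the ATPase INO80. Ino80 had 48.54, 39.08 and 38.46 TPM, and 77.6% of it was on complete coding transcripts. Its accessory subunits were lower: Ino80d had 30.9 ± 5.94 TPM, Ino80e had 17.1 ± 1.90 TPM, Ino80b had 3.59 ± 2.35 TPM, or 2.25 TPM without replicate 3, and Ino80c had 1.77 ± 0.21 TPM. Ino80b rested on 12, 48 and 55 counts and had the second highest spread of CPM, with an SD of 0.59 on the log2 scale. Ino80dos, a noncoding gene opposite Ino80d that the rule leaves out, had 6.81 ± 0.61 TPM. Of the remaining SNF2-type ATPases, Smarcad1, which restores silent chromatin after replication, had 30.8 ± 5.13 TPM. Smarcal1, which rewinds DNA at stalled forks, had 7.63 ± 1.76 TPM, and Chd1l, which is recruited by poly(ADP-ribose), had 1.54 ± 0.56 TPM. Smarcad1 averaged 55.9 TPM and Smarcal1 11.7 TPM in the second transcript table.

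The remaining ARID proteins bind DNA but are not SWI/SNF subunits. Arid5a, an RNA-binding protein known to stabilise Il6 mRNA in macrophages, had 43.24, 27.66 and 19.55 TPM. Arid5b, which recruits a histone demethylase and lies at chr10:68092520-68278740 on the minus strand of mm10, had 119.81, 77.42 and 64.61 TPM. Both were highest in replicate 1 and lowest in replicate 3, and Arid5a was lower than Arid5b by a log2 difference of -1.53 ± 0.13 (exact sign-flip p = 0.25). Arid4a and Arid4b, partners of the retinoblastoma protein and of a SIN3 deacetylase complex, had 49.0 ± 5.85 and 41.8 ± 3.96 TPM. Their log2 difference was 0.22 ± 0.13, positive in 3 of 3 libraries, though the ranges of their levels overlapped (exact sign-flip p = 0.25). On complete coding transcripts it was 1.01 ± 0.33, and in the second transcript table it was 0.79.

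Arid3a, the B cell factor also called Bright, and its relative Arid3b changed order with the transcripts counted. Arid3a had 5.46, 8.98 and 7.83 TPM and Arid3b had 15.78, 20.69 and 17.75 TPM, a log2 difference of -1.19 ± 0.16 (exact sign-flip p = 0.25). On complete coding transcripts Arid3a had 7.10 ± 1.42 TPM and Arid3b 5.15 ± 1.01 TPM, a difference of 0.39 ± 0.11 in the other direction. In the second transcript table it was -0.67 with all transcripts counted, with Arid3a at 11.4 TPM. The most abundant transcripts of Arid3b were not of the coding kind: Arid3b-206, a retained-intron transcript, had 6.30 ± 0.28 TPM, and Arid3b-205, annotated for nonsense-mediated decay, had 5.89 ± 0.84 TPM. Of the Arid3a RNA, 96.4% was complete coding, but only 51.9% in the second transcript table. The third relative, Arid3c, was without a count in each library, where the floor of 3 counts equals 0.273, 0.159 and 0.205 TPM. Its whole span lies opposite Il11ra1, a cytokine receptor gene at 9.45 ± 1.57 TPM.

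In all, 11 pairs of paralogs were compared, and the difference kept 1 sign in all 3 libraries in each of them. The gene named first was the higher in 6 pairs and the lower in 5. Adjusted over the 11 pairs by the Benjamini-Hochberg method, every exact sign-flip p was 0.25.

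**Figure D2:**
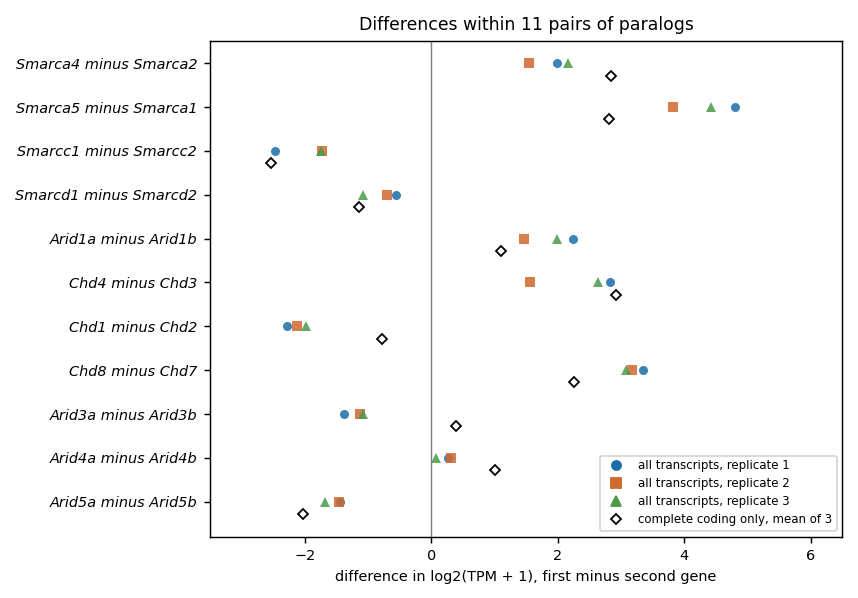
Differences between paralogs in log2(TPM + 1), first minus second gene, for 11 pairs; filled points are the 3 libraries with all transcripts counted and open diamonds the mean with complete coding transcripts only. All filled points of a pair lie on 1 side of 0, and the diamond of Arid3a minus Arid3b lies on the other side.

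Much of the remodeller RNA on chromatin was assigned to transcripts other than complete coding ones. Whether intron reads came from retained-intron transcripts or from RNA not yet spliced was not tested. Over the 34 genes at 1 TPM or more, the median share on complete coding transcripts was 39.8 ± 8.02%, and over the 9037 protein-coding genes at that level it was 46.3 ± 2.69%. By library it was 30.6, 44.2 and 44.8% in the remodeller genes and 43.2, 48.0 and 47.7% in protein-coding genes, lowest in replicate 1 in both. The remodeller genes were lower in each library, by more than their SD in replicate 1 and by less in replicates 2 and 3. In the second transcript table the shares were 30.2 ± 3.21% and 33.4 ± 2.08%. In the first table, 13 of the 38 genes reached 10 TPM in every library on complete coding transcripts, against 10.3% of protein-coding genes with such a transcript. At least 1 TPM was reached by 32, against 34.9%. Both are larger shares than those of protein-coding genes. The most abundant transcript was a complete coding one in 18 of the 34 genes, against 56.3% of detected protein-coding genes, and a retained-intron one in 11, against 31.4%. It was an incomplete coding one in 2, against 3.43%, a processed transcript in 2, against 6.82%, and one annotated for nonsense-mediated decay in 1, against 2.03%. The counts by kind of the most abundant transcript lie near the shares over detected protein-coding genes.

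**Figure D3:**
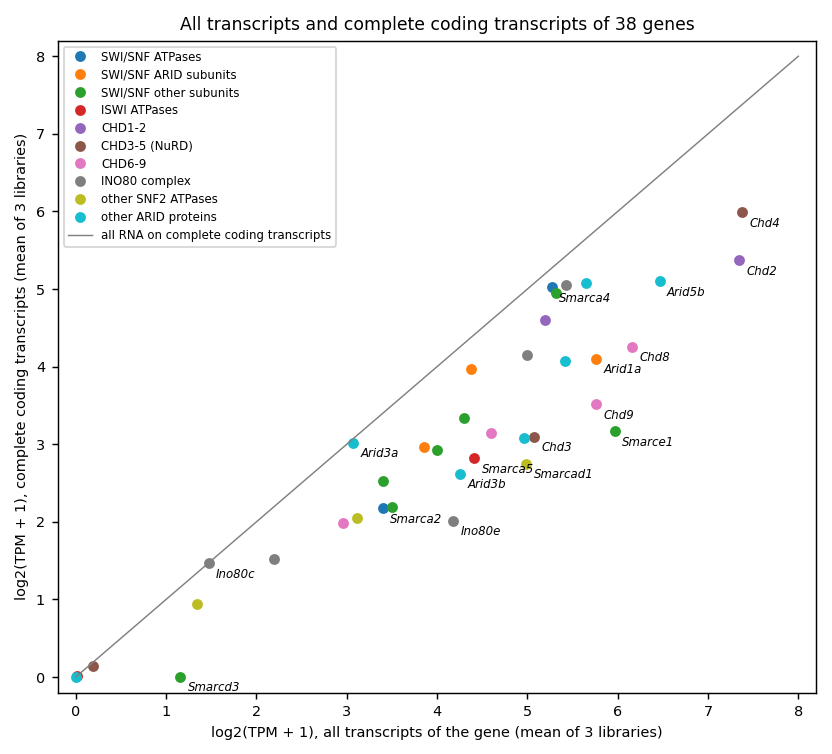
Level of each of the 38 genes with all transcripts counted (horizontal) and with complete coding transcripts only (vertical), both as log2(TPM + 1) of the mean over 3 libraries and coloured by role. Arid3a, Ino80c and Smarca4 lie near the diagonal, Smarce1, Chd9 and Ino80e far below it, and Smarcd3 at 0. In the annotation Ino80c has only complete coding transcripts and Smarca4 only coding ones.

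A retained-intron transcript is annotated in 28 of the 34 detected genes. It is annotated in all but 17.6% of them, against all but 34.9% of protein-coding genes at 1 TPM. By library its median share was 49.1, 37.3 and 45.3%, against 50.8, 46.4 and 47.0% over 5881 protein-coding genes, lower in each library. The means were 43.9 ± 6.04% and 48.1 ± 2.41%, a difference smaller than the SD of the remodeller genes. In the second transcript table they were 37.5 ± 3.18% and 45.9 ± 1.15%, a difference larger than either SD. The share was over 50% in 11 of the 28, beside 46.5% of those protein-coding genes. It was highest in Smarcd3, at 100%, followed by Arid5a at 69.1 ± 1.99%, Smarca5 at 68.2 ± 9.11%, Smarcal1 at 59.9 ± 9.24%, Arid5b at 59.1 ± 4.75% and Chd8 at 59.0 ± 6.56%. Smarcd3 averaged only 1.23 TPM, and its reads cannot be told from those of Chpf2 with certainty, as given above. The share was lowest in Smarca2, at 4.30 ± 2.49%, Ino80d, at 14.8 ± 3.52%, and Chd7, at 16.4 ± 3.35%. This order depended on the table, as 17 of the 28 shares moved by more than their SD in the second transcript table. Ino80d was lowest there, at 10.6%, with Chd7 at 12.2% and Smarca2 above both. Smarca5 came next after Smarcd3 there, at 88.6%, while Arid5b fell to 53.7%, below Smarcd2 and Smarcb1. The other 6 detected genes, Smarca4, Smarce1, Chd1, Arid3a, Arid4a and Ino80c, have no retained-intron transcript in the annotation and so no share.

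**Figure D4:**
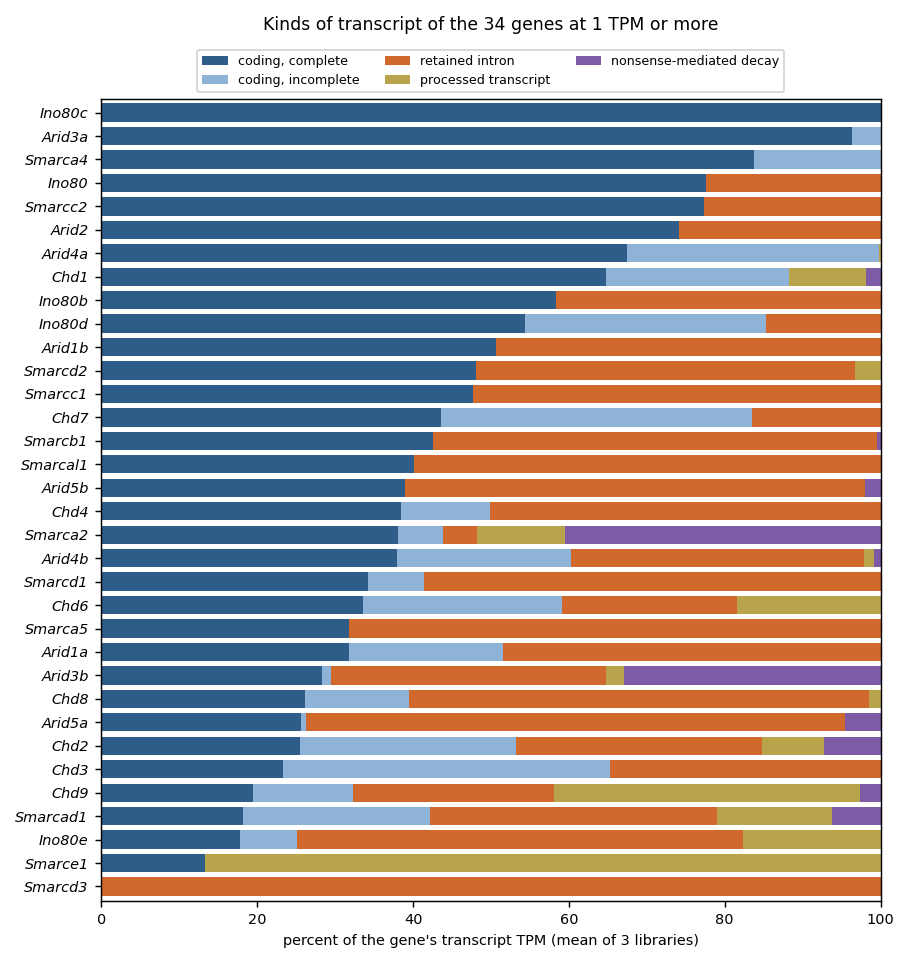
Share of each gene's transcript TPM on each annotated kind of transcript, as the mean of 3 libraries, for the 34 genes at 1 TPM or more in every library, ordered by the complete coding share. Ino80c and Arid3a are almost wholly complete coding in the first transcript table, while Smarcd3, Smarce1 and Ino80e have the smallest shares of that kind. All 4 annotated transcripts of Ino80c are complete coding, so its share could only be 100%.

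For 24 of the 29 genes with a retained-intron transcript above 0 TPM, the most abundant one crossed the end of a coding exon. The introns that follow are annotated ones, and all 24 began with GT. The share over all annotated introns was not counted, so this does not set these genes apart. In 12 of the 24 a whole intron lay inside the transcript. The borders of 6 genes in which such a transcript leads, or takes a large share, are shown from the GENCODE M21 transcripts on mm10, with the last 20 exon bases in lower case and the first 30 intron bases in capitals.
Arid5b: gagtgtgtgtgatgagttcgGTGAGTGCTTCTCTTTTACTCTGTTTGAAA
Arid5a: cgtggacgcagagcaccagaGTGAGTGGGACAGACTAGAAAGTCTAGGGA
Arid1a: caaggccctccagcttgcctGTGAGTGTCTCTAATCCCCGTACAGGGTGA
Smarca5: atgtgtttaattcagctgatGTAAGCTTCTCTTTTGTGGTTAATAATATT
Ino80e: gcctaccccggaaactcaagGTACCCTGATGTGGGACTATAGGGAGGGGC
Smarcd3: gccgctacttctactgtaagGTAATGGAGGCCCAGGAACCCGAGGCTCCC
The Arid5b border, at chr10:68185996-68186045 on the minus strand, is the start of intron 4 of the coding transcript Arid5b-204, an intron of 50919 bases. The transcript that crosses it, Arid5b-202, had 76.3, 45.89 and 35.01 TPM, or 60.0% of the gene, against 40.31, 29.41 and 28.38 TPM for Arid5b-204. Both were highest in replicate 1 and lowest in replicate 3, and Arid5b-202 was the higher in every library. It is the most abundant retained-intron transcript of the 38 genes, and it stops within that intron.

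The Arid5a border, at chr1:36311949-36311998 on the plus strand, lies in Arid5a-215, which reads past 5 exon ends and holds 1 whole intron. It had 14.54, 7.43 and 5.78 TPM, with replicate 1 well above the others. The Arid1a border, at chr4:133719507-133719556 on the minus strand, opens intron 4, of 23380 bases, and Arid1a-206 ends within it. The Smarca5 border, at chr8:80725960-80726009 on the minus strand, opens intron 8 in Smarca5-205, which had 4.32 ± 1.21 TPM. The Ino80e border, at chr7:126857196-126857245 on the minus strand, lies in Ino80e-209, which holds 4 whole introns and had 8.23 ± 1.00 TPM, against 2.35 ± 0.46 TPM for the leading complete coding transcript. The Smarcd3 border, at chr5:24592987-24593036 on the minus strand, opens intron 12, of 212 bases, which lies whole inside Smarcd3-205. That transcript had 0.96, 0.88 and 0.7 TPM, and it is the one that shares bases with exons of Chpf2.

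The promoters of the genes were mostly rich in CG dinucleotides, whether or not their RNA was found. RefSeq windows on GRCm38.p6, from 250 bases before to 50 bases after a gene start, were matched for 28 of the 38 genes, taking the window nearest to the start of the leading complete coding transcript. The median number of CG dinucleotides was 26.5 in these 28 windows and 13 in 21262 windows of protein-coding genes. At least 10 were found in 25 of 28 windows, against 56.7% of all. The motif TATAAA, searched as these letters on both strands, was in 2 of the 28 and in 12.6% of all. A window with many CG and no RNA, one with few CG and much RNA, and the one with the fewest CG are shown on the strand of the gene, with CG and TATAAA, or its complement TTTATA, in capitals.
Arid3c: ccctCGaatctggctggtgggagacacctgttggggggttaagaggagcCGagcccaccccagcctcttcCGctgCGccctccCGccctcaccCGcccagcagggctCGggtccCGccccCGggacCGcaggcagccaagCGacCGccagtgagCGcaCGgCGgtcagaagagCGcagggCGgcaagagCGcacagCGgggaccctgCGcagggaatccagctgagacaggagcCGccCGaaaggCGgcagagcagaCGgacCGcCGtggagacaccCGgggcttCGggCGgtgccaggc
Arid5b: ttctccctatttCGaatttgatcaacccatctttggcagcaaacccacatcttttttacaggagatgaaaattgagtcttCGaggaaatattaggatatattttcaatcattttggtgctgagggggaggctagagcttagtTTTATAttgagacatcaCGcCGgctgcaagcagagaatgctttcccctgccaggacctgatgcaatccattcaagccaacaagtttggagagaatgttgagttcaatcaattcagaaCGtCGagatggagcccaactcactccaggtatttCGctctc
Smarcd2: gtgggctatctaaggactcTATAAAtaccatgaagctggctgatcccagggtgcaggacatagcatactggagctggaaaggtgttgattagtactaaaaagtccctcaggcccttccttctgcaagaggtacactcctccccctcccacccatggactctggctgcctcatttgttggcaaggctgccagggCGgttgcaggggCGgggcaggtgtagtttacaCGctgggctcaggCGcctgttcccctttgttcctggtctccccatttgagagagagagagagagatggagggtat
The Arid3c window, at chr4:41731093-41731392 on the minus strand, has 29 CG and belongs to the gene without a count. Those of Chd5 and Smarca1, also below 1 TPM, have 32 and 9. The Arid5b window, at chr10:68278677-68278976 on the minus strand, lies at the start of Arid5b-204 and has 7 CG and one of the motif matches, while that of Chd4 has 29. The Smarcd2 window, at chr11:106267583-106267882 on the minus strand, has 4 CG, the fewest of the 28, and holds the other match. It lies inside the annotated gene, which begins at chr11:106272972, and 167 bases from the start of Smarcd2-203, the leading complete coding transcript. The whole gene had 18.7 ± 3.66 TPM, and Smarcd2-203 had 5.72 ± 1.86 TPM. A match or its absence describes these letters in this window only.

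The partners of these proteins were present on chromatin to different degrees. Of 18 other SWI/SNF subunits, 12 reached 1 TPM and 7 reached 10 TPM in every library. Dpf2, a histone-reading subunit, led at 80.7 ± 4.85 TPM, followed by the bromodomain subunits Brd7, of PBAF, at 52.4 ± 5.59 TPM and Brd9, of the noncanonical form, at 40.2 ± 4.65 TPM. Dpf3, Actl6b and Bcl11b, known from muscle, neurons and T cells, had no counts in the gene table. All 12 NuRD partners reached 1 TPM and 6 reached 10 TPM. The deacetylase gene Hdac1 led at 69.25, 54.63 and 50.11 TPM, with Mta2 at 49.7 ± 4.37 and the methyl-CpG binder Mbd2 at 33.0 ± 6.75 TPM. Cdk2ap1 was lowest at 4.83 ± 2.78 TPM, within the spread of Mbd3 at 4.92 ± 2.33 TPM. All 12 NuRD partners lay below Chd4 in every library. Dpf2 had 124.8 TPM, Mbd2 64.5 TPM and Cdk2ap1 7.86 TPM in the second transcript table.

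Of 9 ISWI partners, 8 reached 1 TPM and 6 reached 10 TPM. Baz2b had 133.5 ± 20.4 TPM, Baz1a, of the ACF complex, 65.3 ± 10.3 TPM and Baz1b, of the WICH complex, 56.4 ± 9.67 TPM, each above Smarca5 in every library. Cecr2 was lowest at 0.19 ± 0.08 TPM, and was listed at 7.99 TPM in the second transcript table. Of 11 partners in INO80, SRCAP and TIP60 complexes, 10 reached 1 TPM and 5 reached 10 TPM. The ATPase genes Srcap, at 91.7 ± 1.79 TPM, and Ep400, at 58.4 ± 3.16 TPM, led, with Nfrkb at 26.7 ± 1.82 TPM, and the AAA ATPase gene Ruvbl2 was lowest at 1.59 ± 0.61 TPM, or 4.14 TPM in the second transcript table. All 9 other SNF2-family ATPase genes reached 1 TPM and 4 reached 10 TPM. Atrx, which deposits histone H3.3 with DAXX, had 145.0 ± 13.6 TPM, Btaf1, which takes TBP off DNA, 77.6 ± 13.4 TPM, Hltf 16.1 ± 2.74 TPM and Hells, needed for DNA methylation, 2.40 ± 0.40 TPM. In the second transcript table Hltf had 26.8 TPM and Hells 14.1 TPM, and the lowest of the list was Ttf2, at 4.77 TPM. On complete coding transcripts Baz1a led the ISWI partners at 46.6 ± 5.16 TPM, with Baz2b at 30.7 ± 3.18 TPM. Srcap and Ep400 still led their list, while Nfrkb had 1.83 ± 0.72 TPM and Actr5 was lowest at 0.44 ± 0.36 TPM. Btaf1 led the other SNF2-family genes on these transcripts, at 41.0 ± 2.98 TPM, with Atrx at 32.2 ± 4.46 TPM. With all transcripts counted, the shares of protein-coding genes at 1 TPM and 10 TPM were the 41.2% and 19.2% given above.

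The levels of the 38 genes varied between libraries about as much as those of other genes. The SD of log2(CPM + 1), with TMM scaling, had a median of 0.24 over the 35 genes averaging 1 TPM or more, and of 0.26 over 9689 protein-coding genes at that level. Without replicate 1 these medians were 0.12 and 0.14. Over the 3 libraries the SD was largest in Smarcc1, at 0.66, Ino80b, at 0.59, Arid5a, at 0.55, and Chd3, at 0.54. In TPM, replicate 1 was the lowest library for 17 of the 34 detected genes and the highest for 12, against 40.6% and 38.2% of protein-coding genes. In TMM-scaled CPM it was the lowest for 23 and the highest for 7, against 52.1% and 29.7%, and replicate 2 was the highest for 19, against 10 in TPM. Replicate 1, the shallowest library, also had the highest share of TPM in protein-coding genes, at 34.2%, against 27.4% and 29.4% in replicates 2 and 3, and its part in these values was not tested. Another annotated gene overlaps 23 of the 38, against 46.6% of protein-coding genes, and for 8 a gene on the opposite strand reached 1 TPM in every library, against 14.8%. Where exons overlap, reads of sense and antisense genes cannot be told apart unless the counting used strand.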

How the data were processed

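The 3 libraries hold total RNA of the chromatin fraction of macrophages, depleted of ribosomal RNA, and form 1 group by their labels. Per the file headers and the labels, the authors deposited for each library a gene table and a transcript table with estimated (expected) counts and TPM from transcriptome alignments, plus a transcript table with estimated counts and TPM made from the reads without them. They used mm10 and GENCODE M21. The aligner, the quantifiers and the use of strand were not given in the sources used here. TPM is relative to all features of a library. The other deposited columns, such as the effective length and interval bounds of TPM, were not used as results.

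Genes were matched to the M21 annotation by identifier. Rows that are no annotated gene held 1.37, 0.337 and 0.456% of the counts in replicates 1, 2 and 3 and were left out. Levels are gene-table TPM. Transcript shares come from the transcript table made with alignments. Complete coding transcripts are those of type protein_coding without a tag for a missing start or end. Differences within pairs used log2(TPM + 1) with an exact two-sided sign-flip test over libraries and Benjamini-Hochberg adjustment over 11 pairs. Floors of 3 counts and SDs cover counting error and the spread between libraries only. Expected counts were rounded for edgeR 4.0.16 (TMM) and DESeq2 1.42.0 (size factors) in R 4.3.3. Python 3.11.15 (numpy 2.4.6; pandas 2.3.3; matplotlib 3.10.9) served for the rest. The steps were tested on simulated data.

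The members, pairs, lists and markers were chosen with earlier results of these data known. Every member is named, and of each list of partners the 3 highest and the lowest by mean TPM (with ties at 0, all of these). Other genes and transcripts were named after their values were seen. The alternatives were the second transcript table, TPM rescaled to protein-coding genes, a pseudocount of 0.1, CPM from TMM or DESeq2 scaling, low genes left out, leaving out each library, and complete coding transcripts only, which was chosen after seeing the data.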

Additional observations from a re-analysis of the deposited data

How the results depend on the processing

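The median of log2(TPM + 1) over the 38 genes was 4.41. It was 4.71 in the second transcript table, 6.08 with TPM rescaled to protein-coding genes, 4.63 without the genes under a mean of 1 TPM and 3.02 with complete coding transcripts only. As CPM without length correction it was 5.72 with TMM and 5.72 with DESeq2 scaling. Leaving out each library in turn gave 4.38 to 4.45. The count at 10 TPM was 26, and 13 with complete coding transcripts only. The difference Arid3a minus Arid3b was -1.19, and 0.39 with complete coding transcripts only. The median retained-intron share was 43.9%, and 37.5% in the second transcript table, against 48.1 and 45.9% in protein-coding genes. The median spread between libraries was 0.23, and 0.10 to 0.30 leaving out each library in turn, lowest without replicate 1. The causes of these differences were not tested, beyond what fewer genes or transcripts imply. The other pair differences kept their sign under every alternative run. By the second transcript table, the levels of 22 of 38 genes moved by more than their SD, 27 were higher and 8 higher by over 1.5 times. Of the single levels above the floor, leaving out 1 library moved Ino80b by over 1.5 times, to 2.25 TPM without replicate 3.

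No paired analysis was possible because there is no other group of samples to pair with these libraries. Smarca1, Chd5, Ino80b and Chd1l rest on few counts, so their levels are imprecise.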
